A study of Mus musculus with 2 samples.

Results

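Ectodysplasin signalling was examined in the tooth and the skin of newborn mice through 6 genes. These were the ligand Eda, the receptors Edar, Eda2r and Tnfrsf19 (also known as Troy), and the adaptors Edaradd and Traf6. They were picked by gene name in the array annotation, as 6 of 24323 named genes and 12 of the 33182 probes that carry a gene name. The samples were 1 tooth array and 1 skin array of total RNA, both from wild-type mice with no treatment or altered allele named, and both printed on the same slide. The labels give postnatal day 0 as the age, whereas the methods of the study name postnatal day 1. Whole tooth germs and skin were used, so each RNA holds epithelium and mesenchyme together, and the number of animals behind each array is not stated. The comparison asked how the genes used by normal tooth differ from those used by normal skin. With 1 array per tissue there was no replicate, so no test between the tissues was possible, and a gene was called higher in a tissue where it differed at least 2-fold.

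Ectodysplasin is a ligand of the tumour necrosis factor family that ectodermal organs use when teeth, hairs and sweat glands form. It binds the receptor Edar on epithelial cells, and Edar recruits the adaptor Edaradd, which passes the signal through a TRAF protein and the IκB kinase complex to the transcription factor NF-κB. Eda2r binds a different splice form of the ligand, Tnfrsf19 is a related receptor found in ectodermal epithelia, and loss of Eda, Edar or Edaradd gives hypohidrotic ectodermal dysplasia, with missing or misshapen teeth and sparse hair.

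Each probe is a 60-base oligonucleotide in the sense of its transcript, present as 1 spot on each array, and its position along a gene decided which transcripts it could report. The following are 30 of the 60 bases of 8 probes, 5′ to 3′, chosen because the differences between tissues, and the differences between probes of the same gene, rest on them. Each is named by its gene and the start of its whole probe along the target transcript. Bases 31 to 60 of the probe are shown for Eda 5044, and bases 1 to 30 for the others. Capitals mark the motif AATAAA, the sequence of a polyadenylation signal, whose use in these transcripts was not tested.
Eda 5044: attctttgcaAATAAAgtgctcccctcacc
Eda 978: tggagtgctcaatgactggtctcgcatcac
Edar 2954: cccaccactgaatatagaccatactgtgag
Tnfrsf19 4377: atggaatatattttgaatcgcaggattttc
Tnfrsf19 1946: aagccaaggaggctgggaagacagggaaaa
Traf6 585: ttcccctgtccggggaaggaaatcgcctgc
Traf6 1864: aaatggattaatccactgaggaggtcagag
Traf6 5002: ttaactatcgaggtgattcttacttaagac
Per the deposited annotation, in build mm9, the Eda probes lie on the plus strand at chrX:97596039-97596098 and chrX:97590368-97590427, and the Edar probe lies on the minus strand at chr10:58064202-58064261. The Tnfrsf19 probes are on the minus strand at chr14:61582873-61582932 and chr14:61589667-61589726. The Traf6 probes are on the plus strand at chr2:101519206-101519265, chr2:101526308-101526367 and chr2:101540660-101540719. Exon and untranslated-region annotation of that build was not used here. The motif AATAAA was searched in the probe strand only and was found in 1 of the 12 probes, against 13.4% of all probes with a gene name. The GC content of the 12 probes ran from 35.0% to 55.0%, around the median of 41.7% for named probes.

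The tissues carried their own markers. All 6 ameloblast markers and all 6 odontoblast and bone markers were at least 2-fold higher in tooth, and all 5 epidermal markers were at least 2-fold higher in skin. Of 6 hair follicle markers, 5 were higher in skin, and Msx2 was higher in tooth. Epithelial markers that both organs express differed by 0.41 at the median (log2, skin minus tooth), which turned to -0.21 when the arrays were scaled to added control transcripts, and their summed level was 575 in tooth and 1074 in skin, in multiples of each array's 75th percentile. Krt5 made up most of both sums, at 8.82 in tooth and 9.76 in skin as log2. The 6 single differences ran from -0.82 for Itgb4 to 1.19 for Krt14. Of 6 mesenchymal markers, 3 were at least 2-fold higher in tooth and none in skin, with a median of -1.71 and summed levels of 245 in tooth and 115 in skin. All 6 muscle markers and all 5 fat markers were higher in skin, with summed levels of 8.33 against 81.2 and of 2.65 against 18.4, and 4 of the 5 fat markers were so with the added controls. Of 4 measured blood and immune markers, 3 were higher in tooth, with summed levels of 97.9 and 41.0. Most of both sums came from the globin gene Hba-a1, at 6.52 in tooth and 5.29 in skin as log2 of those multiples. Ptprc, which was not well above background in skin, differed by -0.01. The part of these tissue differences in the values of the ectodysplasin genes, among them Edar, which acts in epithelium, was not tested. In whole-tissue RNA, fewer cells of a type and less RNA per cell cannot be told apart.

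Edar and Traf6 were higher in skin by 2-fold or more, and no member was higher in tooth by that much. Eda, Edaradd and Tnfrsf19 lay within 2-fold, and Eda2r was not well above background in either tissue. The 2 members higher in skin were 2 of the 5 whose signal was well above background in tooth, skin or both. That call is the software's own and sets a spot against its local background and the scatter of that background. Across the 17409 genes that met the same condition, which are the genes compared from here on, 14.2% passed 2-fold toward skin and 15.5% toward tooth. The median difference was -0.05 over the 5 members and -0.04 over all genes tested (log2, skin minus tooth), and the quartiles of all genes were -0.58 and 0.47. Levels here are log2 of the intensity relative to the 75th percentile of the array, which was 428 in tooth and 276 in skin. Errors are those the scanner software gave for a spot, which cover the measurement of that spot and not the spread between animals. For bright spots they were close to 10% of the intensity (0.14 in log2), the software's multiplicative error term, and not a scatter measured among spots.

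**Figure D1:**
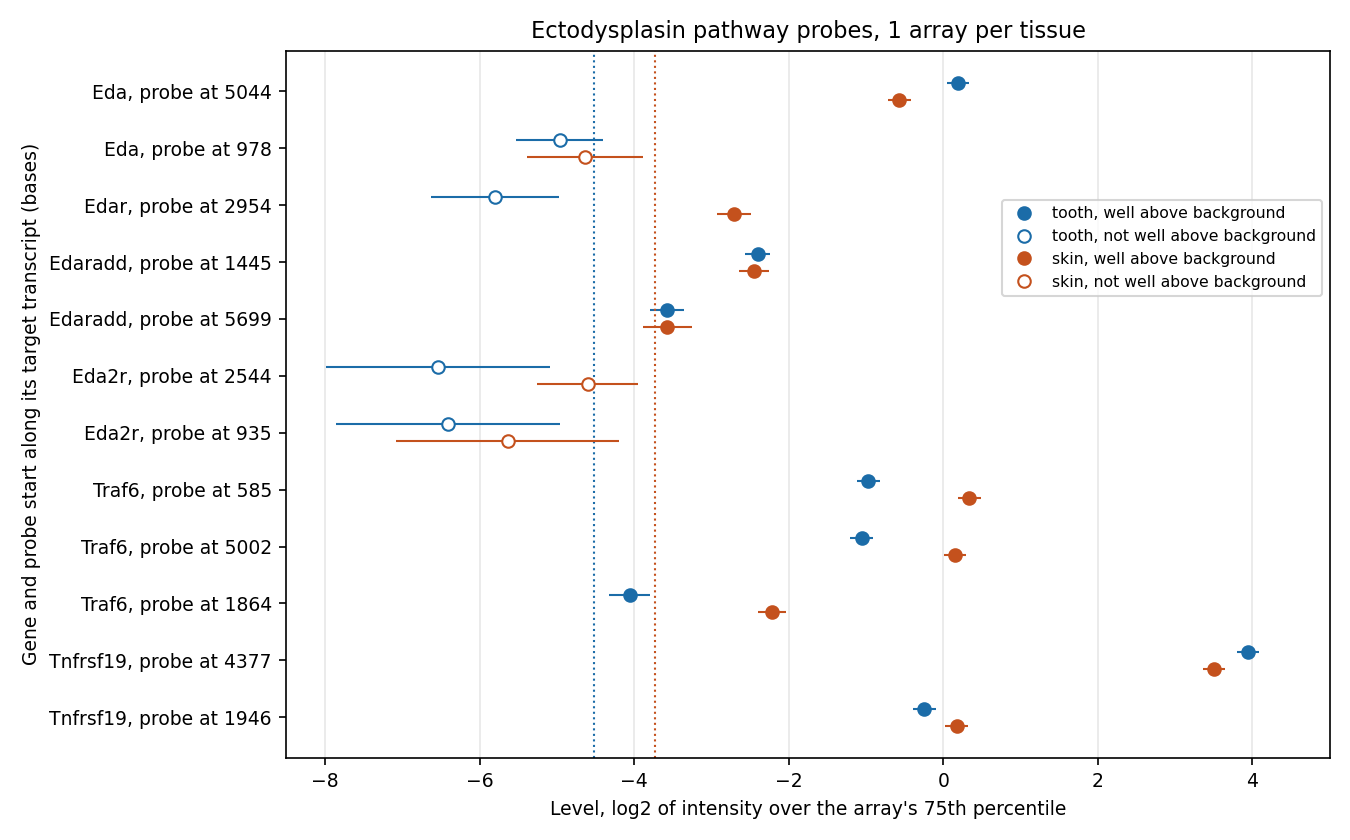
Level of each of the 12 probes of the 6 ectodysplasin genes (horizontal axis, log2 of intensity over the array's 75th percentile) on the tooth array (blue) and the skin array (orange), with the software's spot error as bars and open circles where the spot was not well above background. Dotted lines mark the lowest signal well above background on each array, -4.52 in tooth and -3.73 in skin, and the Edar probe lies below that line in tooth and above it in skin.

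Eda, the ligand, was measured best by the probe at 5044, which holds the motif AATAAA. Its background-corrected intensity was 488 ± 49.1 in tooth and 186 ± 19.3 in skin (software spot error, 1 spot each). On the scaled log2 axis the levels were 0.19 in tooth and -0.57 in skin. The difference was -0.76 with an error of 0.21 from the spots, or 1.69-fold higher in tooth. This was less than the 2-fold limit, and 19.9% of all genes tested had a lower difference. The second Eda probe, at 978, lies closer to the transcript start and was dim in both tissues, below the call of well above background. It gave intensities of 13.7 in tooth and 11.1 in skin, which stood above 307 and 302 of the 308 negative-control spots on the respective arrays. Its difference of 0.32 had an error of 0.94, so it gave no direction. The annotation assigns the 2 probes to different Eda transcript variants, and the array values do not tell which splice form of the ligand was made.

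Edar, the receptor that Eda activates in epithelium, was measured in skin but was dim in tooth. It cannot be ranked against Traf6, since its bound of 1.80 on the log2 scale lay between the values of the Traf6 probes. The spot brightness before correction was 49.9 over a local background of 30 in tooth and 87.0 over 33.5 in skin. After correction the intensity was 7.67 ± 4.41 in tooth and 42.1 ± 6.41 in skin. The tooth spot was brighter than 303 of 308 negative-control spots but was not well above background, while the skin spot was brighter than all 308. The measured levels of -5.80 and -2.71 differed by 3.09 (log2, error 0.86). As the tooth value was dim, the difference is better given as a bound. Edar was at least 3.48-fold higher in skin, when the tooth value was set to the lowest signal that was well above background there. That bound is a log2 difference of 1.80, and 92.7% of the genes tested had a lower difference when every dim value was set to its bound. Edar entered the genes tested only through skin, where it was the higher, so this place among them is a description. Edar has a single probe on the array, so no other probe could be set beside it.

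**Figure D2:**
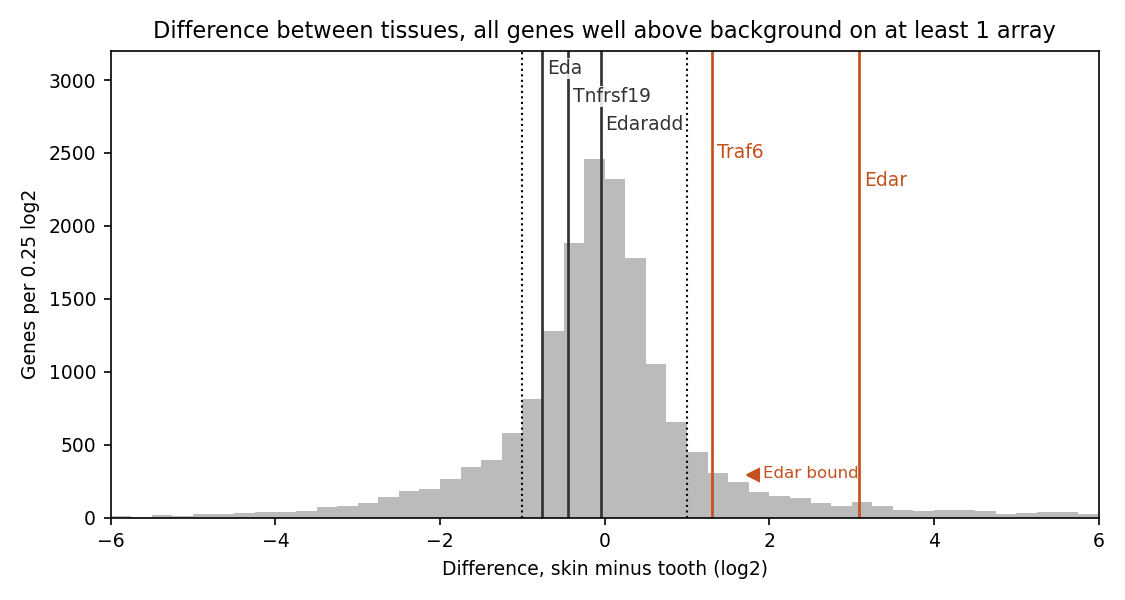
Number of genes (vertical axis, per 0.25 log2) by difference between skin and tooth (horizontal axis, log2, shown from -6 to 6) among the 17409 genes compared, with vertical lines for the 5 ectodysplasin genes in that set and dotted lines at 2-fold. Edar (3.09) and Traf6 (1.31) lie beyond 2-fold toward skin, and the arrowhead gives Edar at its bound of 1.80, while Eda, Tnfrsf19 and Edaradd lie in the body of the distribution.

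Eda2r, the receptor for the other splice form of the ligand, gave no usable level. Its probe at 2544 read 4.60 in tooth, a value substituted by the software for a very dim spot, and 11.4 in skin. The skin spot was brighter than 302 of 308 negative-control spots and the tooth spot was brighter than 172. The probe at 935 read 5.05 in tooth and 5.54 in skin, and both were substituted values. No fold is given, since all 4 spots were dim.

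Tnfrsf19, a receptor of the same family that lies close to Edar in sequence, was well above background in both tissues, but its probes went different ways. The probe at 4377 read 6593 in tooth and 3127 in skin, for levels of 3.95 and 3.50 and a difference of -0.44 (error 0.20), or 1.36-fold higher in tooth. The probe at 1946 read 361 in tooth and 312 in skin, for levels of -0.25 and 0.17 and a difference of 0.42 (error 0.21). Both differences were under 2-fold, and they lay 0.86 apart. Among 3241 genes with 2 probes well above background on both arrays the median gap was 0.26, and 11.5% had a gap at least as wide as that of Tnfrsf19. The direction of Tnfrsf19 between tooth and skin thus depended on the probe.

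Edaradd, the adaptor that binds the death domain of Edar, was nearly equal in the 2 tissues under the reported scaling. The probe at 1445 (minus strand, chr13:12570074-12570133) read 81.0 in tooth and 50.5 in skin. Its levels of -2.40 and -2.45 differed by -0.05 with an error of 0.26. The probe at 5699 (chr13:12565820-12565879) lies 4254 bases further along the same transcript and read 36.0 and 23.3, for a level of -3.57 in both tissues and a difference of 0.00 with an error of 0.38. Under this scaling the tissues thus differed by less than the spot error at both positions. With the arrays scaled to the added controls, the differences were -0.67 and -0.62, larger than those errors.

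Traf6, a ubiquitin ligase that links Edaradd and many other receptors to the IκB kinases, was higher in skin at all 3 of its probes. The probe at 585 read 218 in tooth and 349 in skin, with levels of -0.97 and 0.34, a difference of 1.31 (error 0.21) and a 2.47-fold higher value in skin. The probe at 5002 read 206 and 306, and its levels of -1.06 and 0.15 differed by 1.21 (error 0.21), or 2.31-fold. These positions, at 585 and 5002, lie far apart along the target transcript and gave close values. The dimmer probe at 1864 read 25.7 and 59.3, and its difference of 1.84 (error 0.32) was 3.58-fold. Of all genes tested, 88.9% had a lower difference than the first of these probes. The 3 probes spanned 0.63, against a median span of 0.48 in 624 genes with 3 probes well above background on both arrays.

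Another way of scaling the arrays shifted all genes together and moved some members across the 2-fold limit. Scaling to 8 added control transcripts lowered the median of all genes tested by 0.62, and scaling to each array's median lowered it by 0.25, so the size of a difference depended on the scaling. The added controls themselves differed by -0.01 at the median before scaling. Which scaling is right for these tissues was not tested. Relative to the median of all genes tested, Edar was 1.84 higher at its bound (3.13 with the dim tooth value as measured), Traf6 1.35 higher, Edaradd -0.01, Tnfrsf19 -0.40 and Eda -0.72 on the log2 scale, and a single factor per array leaves these distances as they are. With the added controls, 1 member passed 2-fold toward skin and 2 toward tooth, in place of 2 and 0, where 9.03% and 32.4% of all genes compared did so. Edar kept a bound of 2.26-fold there, and Eda and Tnfrsf19 differed by -1.38 and -1.07 at their brightest probes. The Tnfrsf19 probe at 1946 differed there by only -0.20, and the dim Eda probe at 978 by -0.30. Traf6 differed there by 0.68, 0.58 and 1.22 at its probes at 585, 5002 and 1864. With a different background correction (normexp), which raises dim values, the difference of Edar was 1.05, next to 1.06 for Traf6, and its bound was 1.93-fold. Edaradd changed sign between settings, from -0.67 to 0.21, and Edar and Traf6 stayed higher in skin in each setting that gave them a value.

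**Figure D3:**
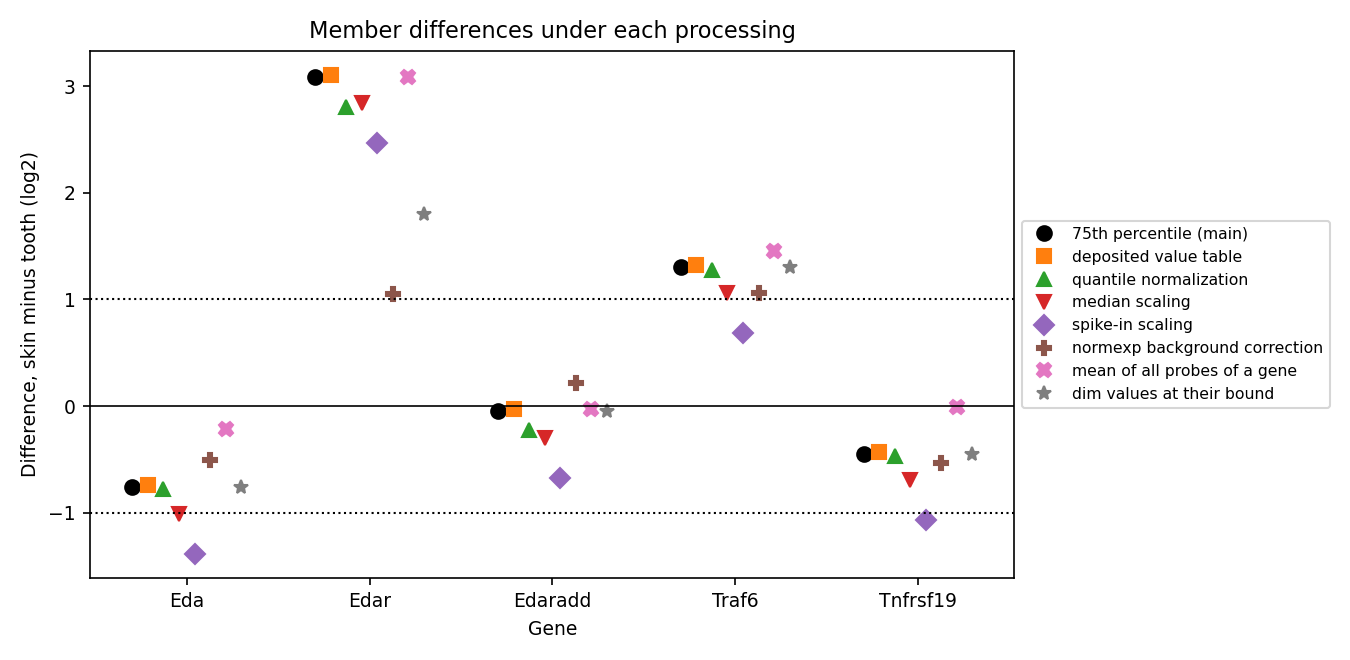
Difference between skin and tooth (vertical axis, log2) of the 5 ectodysplasin genes that could be compared, under the reported scaling (black circles) and 7 other ways of processing the same spots, with dotted lines at 2-fold. Edar ranges from 1.05 to 3.11 and Traf6 from 0.68 to 1.45, Eda and Tnfrsf19 stay below 0, and Edaradd lies on either side of 0. Each gene is shown by its brightest probe, or by the mean of its probes in the setting of that name. The Tnfrsf19 probe at 1946, not shown alone, differed by 0.42 under the reported scaling and by -0.20 with the added controls.

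The kinases, the NF-κB subunits and their inhibitors all lay within 2-fold where they were measured, under the reported scaling, as did 70.4% of all genes compared. Of 11 kinases and NF-κB subunits below the receptor, 10 were well above background and all 10 lay within 2-fold. They ran from -0.46 for Chuk, the catalytic α subunit of the IκB kinase, to 0.87 for Relb, an NF-κB subunit. The other Relb probes differed by 0.75 and -0.34, so its direction depended on the probe. Rel, another subunit, was not well above background in either tissue. The median of the 10 was 0.13. The 6 modulators of the ligand and inhibitors of NF-κB also lay within 2-fold, with a median of -0.20. Furin, the protease that releases ectodysplasin from the cell surface, differed by -0.03. Nfkbia, the inhibitor that holds NF-κB in the cytoplasm and is itself an NF-κB target, differed by 0.84, and Tnfaip3, an enzyme that ends the signal, by -0.98. Among 5 other TRAF adaptors only Traf1, an NF-κB target, passed 2-fold, going from -1.49 in tooth to 0.17 in skin (a difference of 1.65), while Traf3 differed by -0.50. Under the added controls Chuk and Traf3 passed 2-fold toward tooth, as did Tnfaip3 and Nfkbie, and the 3 list medians were -0.49, -0.82 and -0.48.

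Genes placed downstream of ectodysplasin in placodes, the epithelial thickenings that start teeth and hairs, differed widely and in both directions. Of 15 such genes, 14 had a signal well above background in tooth, skin or both, with 6 past 2-fold toward skin, 3 toward tooth and 5 within 2-fold, and their median was 0.60. Areg, Epgn and Cxcl10 entered only through skin, where they were high. Among the 11 genes well above background in both tissues the counts were 3 and 3 and the median was -0.71, and with the added controls the median of the 14 was -0.03, so the list gave no single direction. Over all genes compared, 14.2% and 15.5% passed 2-fold toward skin and tooth, or 11.4% and 12.3% of those well above background in both. Higher in skin were the growth factors Areg, at least 16.3-fold, and Epgn, at least 11.9-fold. Fst, which binds and blocks activin, had levels of 2.21 in tooth and 4.39 in skin and differed by 2.18. Wnt10b, a Wnt ligand, had levels of -1.72 and 0.97 and differed by 2.70. Dkk4, a secreted Wnt inhibitor, differed by 1.62, and the chemokine Cxcl10 was at least 2.74-fold higher. Shh, the hedgehog ligand of dental and hair epithelium, was higher in tooth, with levels of 2.61 and -0.38 and a difference of -2.99. Ltb, a ligand of the same family as Eda, had levels of -0.60 and -3.23 and differed by -2.63. Wnt10a, a Wnt ligand whose loss affects teeth and hair, had levels of 5.63 and 3.74 and differed by -1.89. The related ligands Wnt10a and Wnt10b therefore lay on opposite sides. Foxi3, a transcription factor of placodes, differed by 0.76, and Fgf20 was not well above background in either tissue.

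Among 4 regulators placed upstream of the members, Lef1, a Wnt-responsive transcription factor, was higher in skin at both its probes, with levels of 2.38 and 4.16 at the first and differences of 1.79 and 1.92. Trp63, the transcription factor that maintains stratified epithelium, differed by 0.16, Inhba, an activin subunit made in dental mesenchyme, by 0.11, and Ctnnb1, which encodes β-catenin, by -0.77. Of 22 other receptors of the tumour necrosis factor family, 18 could be compared, of which 5 passed 2-fold toward skin, 4 toward tooth and 9 neither. Of all genes compared, 14.2% passed 2-fold toward skin and 15.5% toward tooth. Tnfrsf13c entered only through skin and Cd40 only through tooth, where each was high. Among the 16 receptors well above background in both tissues the counts were 4 and 3, beside 11.4% and 12.3% of all such genes. Tnfrsf18, a receptor of immune cells and keratinocytes, differed by 3.40. Tnfrsf4, Tnfrsf14 and Tnfrsf21 differed by 1.28, 1.21 and 1.02, and Tnfrsf13c was at least 2.94-fold higher in skin. The other Tnfrsf14 probe, dim in tooth, skin or both, differed by -0.11. On the tooth side, Cd40, a receptor of antigen-presenting cells, was at least 29.8-fold higher, with levels of 1.17 and -5.62. Relt had levels of 1.26 and -2.99 and differed by -4.26. Tnfrsf11b, the decoy receptor that restrains osteoclasts, differed by -1.77, and the neurotrophin receptor Ngfr by -1.14.

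Over the 6 lists together, 57 of 63 could be compared. Of these, 13 (22.8%) passed 2-fold toward skin and 7 (12.3%) toward tooth, beside 14.2% and 15.5% of all genes compared. Areg, Epgn, Cxcl10 and Tnfrsf13c entered only through skin and Cd40 only through tooth, where each was high. Among the 52 listed genes well above background in both tissues the counts were 9 (17.3%) and 6 (11.5%), beside 11.4% and 12.3% of all such genes. With the added control transcripts the counts over the 57 were 8 (14.0%) and 16 (28.1%), beside 9.03% and 32.4% of all genes, which that scaling moves together by the same amount. Of the genes named above, Dkk4, Tnfrsf4, Tnfrsf14, Tnfrsf21 and Cxcl10 were then less than 2-fold higher in skin, and the bound of Tnfrsf13c was 1.90-fold. Traf6 was also less than 2-fold higher at its probes at 585 and 5002 (0.68 and 0.58), but not at its dimmer probe at 1864 (1.22).

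**Figure D4:**
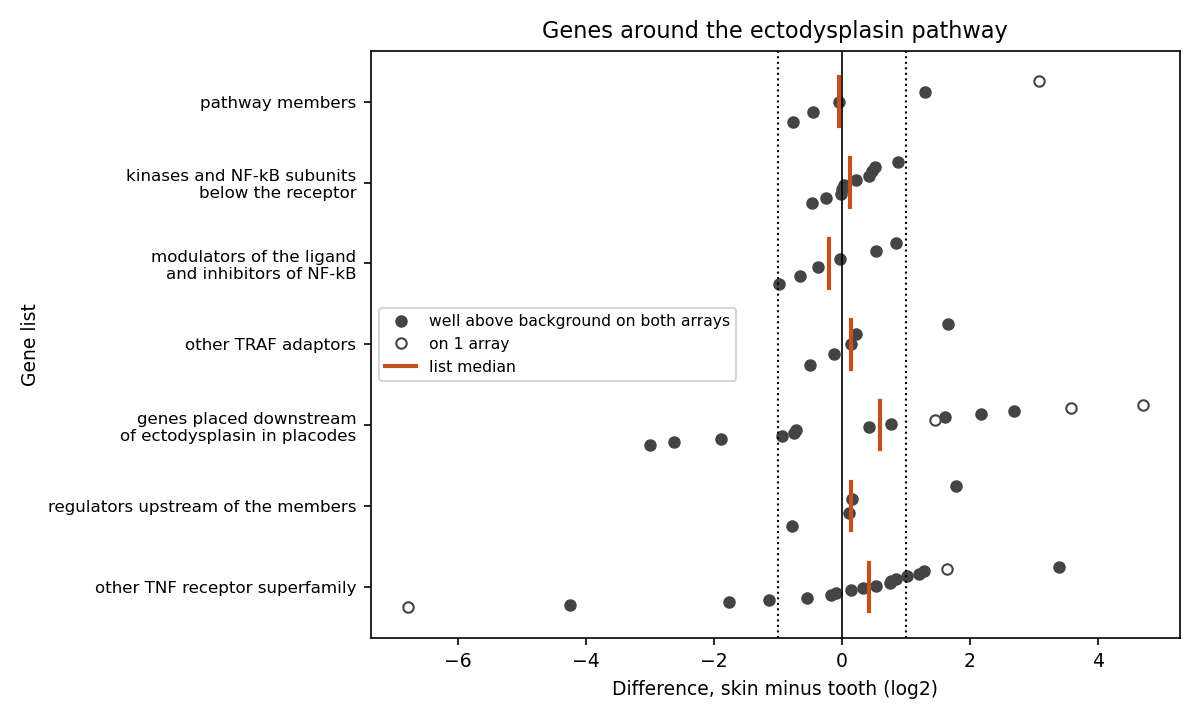
Difference between skin and tooth (horizontal axis, log2) of each gene that could be compared, for the ectodysplasin genes and 6 lists of genes around the pathway, with open circles for genes well above background on 1 array only, orange bars at list medians and dotted lines at 2-fold. The kinases and the NF-κB inhibitors stay within 2-fold, while the genes downstream in placodes run from -2.99 to 4.71.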

How the data were processed

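Total RNA of 1 tooth and 1 skin sample was measured on 1-colour Agilent mouse arrays. Per the file headers, the authors deposited linear spot intensities. They came from Agilent Feature Extraction 10.7.3.1, also named in the submitters' processing notes, and were background-subtracted and detrended, with very dim spots replaced by substitutes. They also deposited a value table, which was a ratio of the same intensity to a factor of 430.7 (tooth) or 274.5 (skin). The methods name GeneSpring, a filter on low signal and a percentile shift. No authors' comparison columns were used.

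Control spots were left out, outlier spots (137 in tooth, 146 in skin) were dropped, spots of a probe were averaged as log2, and the 75th percentile of each array was subtracted. A probe was well above background where over 50% of its spots carried the software's call. A gene was represented by the probe whose mean of both arrays was highest. No spot was saturated, and 56.7% of probes in tooth and 52.5% in skin were well above background. The number of arrays limits the precision. Where a gene was dim in 1 tissue, the lowest signal well above background there, or the gene's own value if higher, gave a bound. Among probes with at least 8 spots, the median SD between spots was 0.39 in tooth and 0.34 in skin at levels from -7 to -4, and 0.06 and 0.07 above 0. Names were updated through a RefSeq table (GRCm38.p6, names only), which matched 27234 of 33182 named probes (82.1%) and all 6 members.

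Named genes were the 6 members, the listed genes at least 2-fold apart, and Nfkbia, Traf3, Trp63, Inhba and Furin. Chuk, Relb, Rel, Tnfaip3, Nfkbie, Ctnnb1, Foxi3, Fgf20, Msx2, Hba-a1, Ptprc, Krt5, Itgb4 and Krt14 were added after their values were seen. With 1 difference per gene, no genes of like pattern were sought. The members and lists were chosen with earlier results of these data known. Python 3.11.15, pandas 2.3.3, NumPy 2.4.6, R 4.3.3 and limma 3.58.1 (normexp, offset 50) were used, and the steps were tested on simulated data.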

Additional observations from a re-analysis of the deposited data

How the results depend on the processing

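Scaling and background correction were varied, with the source of the values, the filter on dim probes, their bound and the probe rule, as 9 alternatives. No member changed from 2-fold higher in one tissue to 2-fold higher in the other. Scaling to the added controls put 1 member past 2-fold toward skin and 2 toward tooth, with a member median of -0.67, and put 8 listed genes higher in skin and 16 in tooth; all genes moved alike, to 9.03% and 32.4% past 2-fold and a median of -0.67. Scaling to the array median gave 1 member higher in tooth and a member median of -0.30, and quantile normalization a median of -0.23. Normexp gave a member median of 0.21 and 8 listed genes higher in skin. With no filter on dim probes the member median was 0.63, because Eda2r entered. With only genes well above background on both arrays, 1 member was 2-fold apart, which was higher in skin, and the median was -0.25, because Edar left. Over the alternatives, at the brightest probe or the probe mean, Eda ran from -1.38 to -0.22, Tnfrsf19 from -1.07 to -0.01 and Traf6 from 0.68 to 1.45. No paired analysis was possible because each tissue had 1 array, and no array could be left out. The spread between animals is unknown, the Edar difference rests on 1 probe that was dim in tooth, and levels of different probes cannot be ranked.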
